A study of Rattus norvegicus with 20 samples.

Results

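Acss1, Acss2, Acss3, Acly, Pcca, Pccb, Acads, Hadh, Oxct1 and Bdh1 encode enzymes that handle acetate, propionate, butyrate and the ketone bodies related to butyrate. They were taken by gene symbol, and all 10 were found among the 17296 symbols of the count table. RNA came from the nucleus accumbens, part of the ventral striatum and of the reward system, of 20 male wild-type Sprague-Dawley rats aged 7 to 9 weeks and housed 2 to a cage. All 20 had self-administered cocaine, the water controls included, and had free access to their assigned drink. The drinks were antibiotics that deplete the gut microbiome together with short-chain fatty acids (Abx_SCFA, n = 5), short-chain fatty acids alone (SCFA, n = 6), antibiotics alone (Abx, n = 4) and water (H2O, n = 5). The labels used here name neither the single antibiotics and fatty acids nor their doses. Each library is 1 rat, and p-values measure the spread between these libraries.

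Short-chain fatty acids are fermentation products of gut bacteria, and a cell must join them to coenzyme A before it can burn them or build with them. Acetate becomes acetyl-CoA, the donor for lipid synthesis and histone acetylation, propionate enters the citric acid cycle through methylmalonyl-CoA, and butyrate is oxidised in mitochondria. The brain also burns ketone bodies, among them 3-hydroxybutyrate.

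All 10 genes passed the filter on low counts that left 12846 genes for testing, and none shared identical counts with another symbol. Library totals ran from 18375538 to 25731636 counts in Abx_SCFA, from 17946132 to 25601695 in SCFA, from 17525358 to 25366231 in Abx and from 18223766 to 22235777 in H2O. The fatty acid drinking rats all carry numbers of the 4-hundred series and the others numbers of the 2- or 3-hundred series, so the number series and the fatty acid drink cannot be told apart. All 14 markers of medium spiny neurons, the most common neurons here, were present, with mean levels of 89.4 to 1781 CPM (counts divided by library size, on a common scale). Slc17a7, a glutamate transporter of cortical excitatory neurons, differed widely between libraries, at 132 to 339 CPM in Abx_SCFA, 74.0 to 1059 in SCFA, 43.7 to 506 in Abx and 3.09 to 252 in H2O. SCFA replicates 2 and 5 had the highest Slc17a7 and the lowest medium spiny neuron markers of all libraries. Cend1, a neuronal gene, was at 0.192 to 0.554 CPM in the 6 SCFA libraries. It was as low in Abx_SCFA replicate 5, at 0.306 CPM, and in H2O replicate 4, at 0.315 CPM, which sets those libraries apart from their groups, and their labels could not be checked further. In bulk tissue, fewer cells of a type and less RNA per cell cannot be told apart.

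No enzyme gene passed the test in any comparison. With the quasi-likelihood F test of edgeR and Benjamini-Hochberg adjustment over all genes, 0 of 10 members had an adjusted p below 0.05 in the 8 contrasts or in the test of any difference among the 4 groups. The share of all 12846 genes that passed was 0% in each of these 9 tests. Across the 4 groups, the highest group mean exceeded the lowest by a ratio of 1.01 for Oxct1, 1.03 for Acss1, 1.06 for Pccb, 1.08 for Hadh, 1.09 for Acly, 1.13 for Pcca, 1.14 for Bdh1, 1.17 for Acads, 1.195 for Acss2 and 1.29 for Acss3. In the test of any difference, Bdh1 came first with an unadjusted p of 0.0199 and an edgeR adjusted p of 0.581, and Acss2 followed with 0.0684 and 0.581. Of the 10, only Bdh1 was below an unadjusted 0.05 in that test, where 8.29% of all genes were. Levels below are CPM, not corrected for gene length, and are compared within a gene only.

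**Figure D1:**
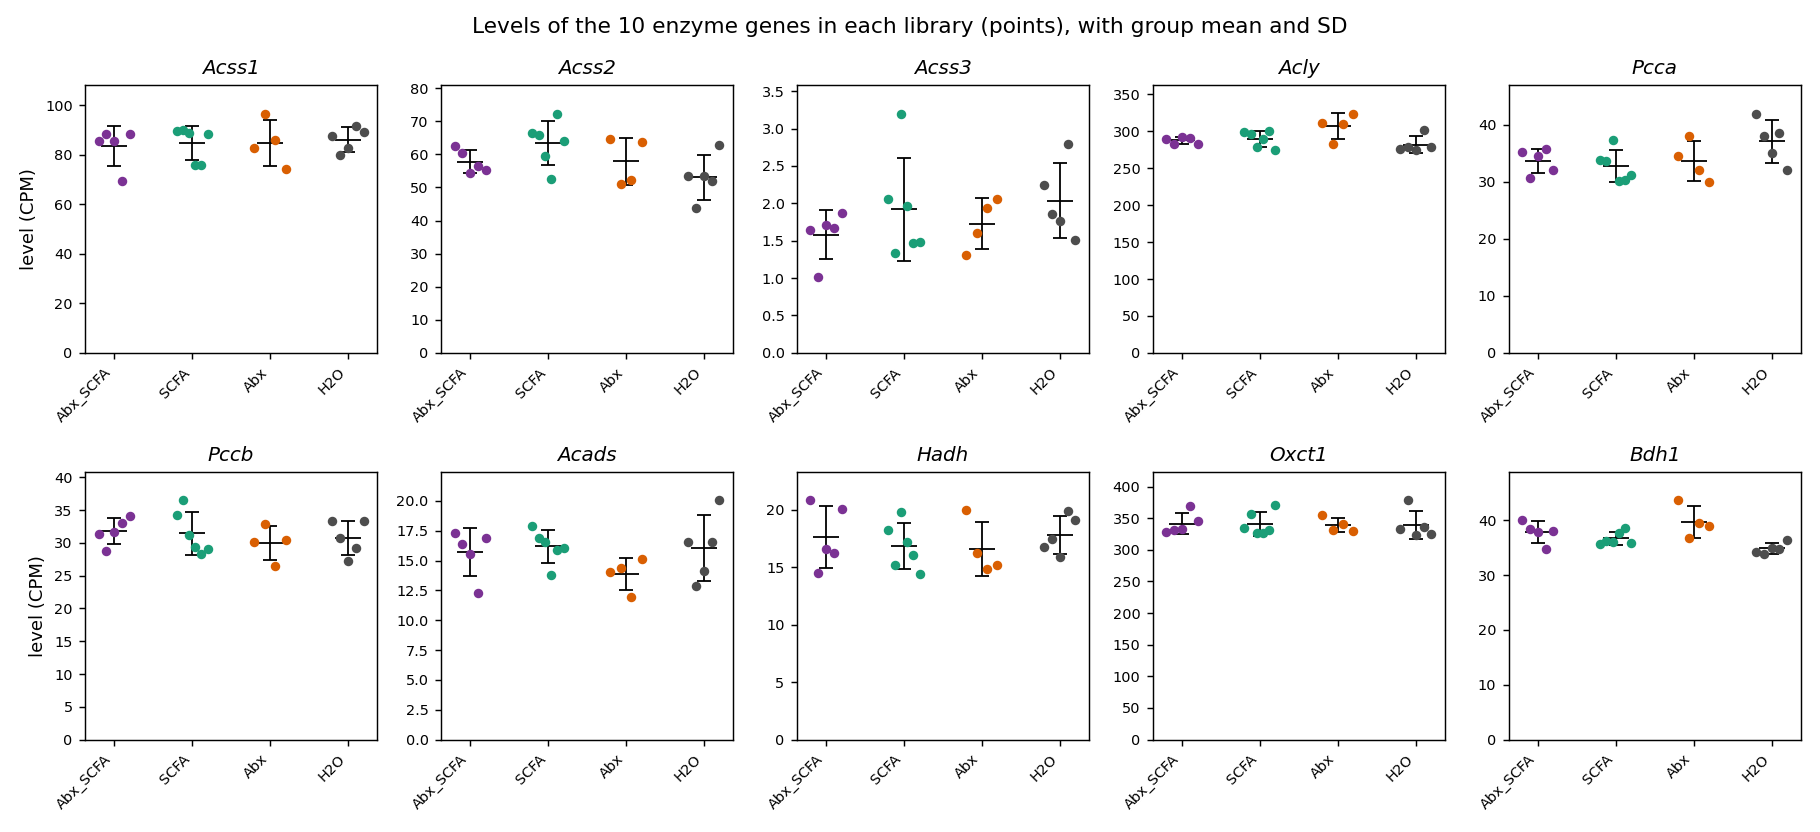
Level of each of the 10 enzyme genes (CPM, y axes starting at 0) in every library, by group. Points are libraries and bars give the group mean with its SD. Bdh1 ran from 36.8 to 43.6 CPM in Abx and from 33.8 to 36.5 CPM in H2O, while Oxct1 had nearly the same mean in all 4 groups.

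Acss2 is the acetyl-CoA synthetase of cytosol and nucleus, which turns acetate into the acetyl-CoA used for lipids and histones. It had 62.5, 60.4, 54.3, 56.6 and 55.2 CPM in Abx_SCFA. In SCFA its lowest, median and highest levels were 52.6, 64.8 and 72.3 CPM. It had 64.5, 51.2, 52.1 and 63.6 CPM in Abx, against 53.4, 43.8, 53.5, 52.0 and 62.8 CPM in H2O. Acss2 was above every H2O library in 4 of 6 SCFA libraries, and the groups overlapped. Its mean was 63.4 ± 6.72 CPM in SCFA (SD, n = 6) and 53.1 ± 6.77 CPM in H2O (SD, n = 5). The log2 fold change of Acss2 in SCFA vs H2O was 0.26 ± 0.090 (SE), or 19.5% higher with a 95% interval of 4.93% to 36.0%. Its unadjusted p was 0.00965 and its edgeR adjusted p 0.250.

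Cell type markers moved with Acss2 in that comparison. All 14 medium spiny neuron markers had negative fold changes in SCFA vs H2O, with a median log2 fold change of -0.35 and 5 lower at an unadjusted p below 0.05, as 5.58% of all genes were. Their summed level ran from 3765 to 8184 CPM in SCFA and from 6465 to 9107 CPM in H2O. Of 11 cortical excitatory neuron markers tested, 10 had positive fold changes and 1 a negative one, with a median of 2.61. At that p, 10 of these markers were higher and 1 lower, beside 8.2% and 5.58% of all genes. Their summed level ran from 238 to 1673 CPM in SCFA and from 160 to 485 CPM in H2O. With the cortical marker score as a covariate the log2 fold change of Acss2 was 0.07 (unadjusted p = 0.471, edgeR adjusted p = 0.993). With the medium spiny neuron score, a covariate chosen after its relation with Acss2 was seen, it was 0.10 (unadjusted p = 0.207, edgeR adjusted p = 0.9999). Without SCFA replicates 2 and 5 it was 0.19 (unadjusted p = 0.0606, edgeR adjusted p = 0.864).

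Acly, ATP citrate lyase, makes the same cytosolic acetyl-CoA from citrate. It had 289, 283, 292, 291 and 283 CPM in Abx_SCFA, and its lowest, median and highest levels in SCFA were 274, 293 and 300 CPM. It had 311, 283, 310 and 324 CPM in Abx, against 276, 279, 275, 302 and 278 CPM in H2O. Acly was above every H2O library in 3 of 4 Abx libraries, and the groups overlapped. Its log2 fold change in Abx vs H2O was 0.12 ± 0.050 (SE), or 8.78% higher, with an unadjusted p of 0.0244 and an edgeR adjusted p of 0.563. With the cortical marker score as a covariate it was 0.09 (unadjusted p = 0.150, edgeR adjusted p = 0.668), and the cortical and oligodendrocyte markers that moved in Abx vs H2O are given with Bdh1. In Abx_SCFA vs Abx it was -0.09 ± 0.050 (unadjusted p = 0.0756, edgeR adjusted p = 0.999). In the interaction, the antibiotic effect with fatty acids less that without them, it was -0.13 ± 0.067 (unadjusted p = 0.0637, edgeR adjusted p = 0.627).

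Acss1, the mitochondrial acetyl-CoA synthetase, averaged 83.5 ± 8.05 CPM in Abx_SCFA, 84.9 ± 6.87 in SCFA, 84.9 ± 9.31 in Abx and 86.2 ± 4.89 in H2O (SD). Across the 5 pairwise comparisons its 95% intervals lay between -13.5% and 10.98%. Acss3, a mitochondrial synthetase with a preference for propionate, was the least counted member, with 19 to 62 counts per library. It averaged 1.58 ± 0.329 CPM in Abx_SCFA, 1.92 ± 0.692 in SCFA, 1.73 ± 0.341 in Abx and 2.04 ± 0.499 in H2O (SD). Its coefficient of variation over the 20 libraries was 27.5%, against 4.70% for Acly and 4.88% for Oxct1. Its 95% intervals over those 5 comparisons reached from -45.2% to 33.6%. They were the widest of the members, so its differences are the least precisely known, and the cause of the width was not tested.

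Pcca and Pccb encode the alpha subunit, which carries biotin, and the beta subunit of propionyl-CoA carboxylase. Pcca had 35.2, 30.7, 34.5, 35.7 and 32.0 CPM in Abx_SCFA, and its lowest, median and highest levels in SCFA were 30.1, 32.4 and 37.3 CPM. It had 34.4, 38.1, 32.1 and 29.9 CPM in Abx, against 41.9, 38.0, 35.0, 38.5 and 32.0 CPM in H2O. Pcca was below every H2O library in 3 of 6 SCFA libraries, and the groups overlapped. Its log2 fold change in SCFA vs H2O was -0.18 ± 0.077 (SE), or a percent change of -11.8%, with an unadjusted p of 0.0286 and an edgeR adjusted p of 0.301. With the cortical marker score as a covariate it was -0.05 (unadjusted p = 0.584, edgeR adjusted p = 0.993), and without SCFA replicates 2 and 5 it was -0.16 (unadjusted p = 0.0789, edgeR adjusted p = 0.864). Without H2O replicate 4 and Abx_SCFA replicate 5, the libraries of unusual Cend1, it was -0.17 (unadjusted p = 0.0675, edgeR adjusted p = 0.516). In Abx_SCFA vs H2O it was -0.14 ± 0.081 (unadjusted p = 0.0933, edgeR adjusted p = 0.815), and it was -0.04 once the cortical score was a covariate and -0.09 without H2O replicate 1. Pccb averaged 31.8 ± 2.00 CPM in Abx_SCFA, 31.5 ± 3.25 in SCFA, 30.0 ± 2.62 in Abx and 30.8 ± 2.63 in H2O (SD).

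Acads, short-chain acyl-CoA dehydrogenase, begins the oxidation of butyryl-CoA. It had 17.3, 16.4, 15.6, 12.3 and 16.9 CPM in Abx_SCFA, against 14.02, 14.4, 11.96 and 15.1 CPM in Abx. Of the Abx_SCFA libraries, 4 of 5 were above every Abx library and replicate 4 was not. The log2 fold change was 0.18 ± 0.12 (SE), with an unadjusted p of 0.152 and an edgeR adjusted p of 0.999. It was 0.11 without Abx replicate 3 (unadjusted p = 0.394, edgeR adjusted p = 0.9995) and 0.25 without Abx_SCFA replicate 4 (unadjusted p = 0.0397, edgeR adjusted p = 0.999). Acads averaged 15.7 ± 2.02 CPM in Abx_SCFA, 16.2 ± 1.37 in SCFA, 13.9 ± 1.34 in Abx and 16.02 ± 2.76 in H2O (SD). Its mean was thus lowest in Abx, and that of Abx_SCFA lay near those of SCFA and H2O. Hadh, 3-hydroxyacyl-CoA dehydrogenase, acts later in the same pathway on short chains. It averaged 17.6 ± 2.68 CPM in Abx_SCFA, 16.8 ± 2.00 in SCFA, 16.6 ± 2.33 in Abx and 17.8 ± 1.65 in H2O (SD).

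Bdh1, the mitochondrial dehydrogenase that interconverts 3-hydroxybutyrate and acetoacetate, had the smallest p among the members. It had 40.1, 38.5, 37.8, 34.7 and 38.0 CPM in Abx_SCFA, and its lowest, median and highest levels in SCFA were 35.7, 36.2 and 38.7 CPM. It had 43.6, 36.8, 39.5 and 38.9 CPM in Abx, against 34.3, 33.8, 35.0, 34.8 and 36.5 CPM in H2O. Every Abx library was above every H2O library, as were 4 of 5 Abx_SCFA libraries and 2 of 6 SCFA libraries. Bdh1 was the 1 member whose Abx and H2O levels did not overlap, which was so for 2.46% of all genes, 0.887% with Abx higher. In the other 4 pairwise comparisons every member's groups overlapped. Groups did not overlap there for 0.537% of all genes in SCFA vs H2O, 1.42% in Abx_SCFA vs H2O, 1.2% in Abx_SCFA vs Abx and 0.56% in Abx_SCFA vs SCFA.

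The log2 fold change of Bdh1 in Abx vs H2O was 0.19 ± 0.055 (SE), or 13.8% higher with a 95% interval of 5.12% to 23.2%. Its unadjusted p was 0.00284 and its edgeR adjusted p 0.563. In Abx_SCFA vs H2O it was 0.12 ± 0.052 (unadjusted p = 0.0358, edgeR adjusted p = 0.815), and 0.08 once the cortical score was a covariate (unadjusted p = 0.230, edgeR adjusted p = 0.793). Without the libraries of unusual Cend1 that value was 0.11 (unadjusted p = 0.0882, edgeR adjusted p = 0.9999). Averaged over both backgrounds, antibiotics went with a log2 difference of 0.11 ± 0.037 (unadjusted p = 0.00559, edgeR adjusted p = 0.581). In Abx vs H2O all 11 oligodendrocyte markers had negative fold changes, with a median of -0.67 and 10 lower at an unadjusted p below 0.05 (5.53% of all genes were), and 10 of 11 cortical markers had positive ones, with a median of 1.82. Oligodendrocyte markers summed to 6628 to 13994 CPM in Abx and 14760 to 22348 CPM in H2O. The fold change of Bdh1 in Abx vs H2O was 0.17 with the oligodendrocyte score as a covariate (unadjusted p = 0.0151, edgeR adjusted p = 0.9996) and 0.14 with the cortical score (unadjusted p = 0.0426, edgeR adjusted p = 0.578). Over all 20 libraries Bdh1 had a Pearson r of 0.52 with the cortical score (permutation p = 0.018, adjusted p = 0.122). Within the 2- and 3-hundred series, which holds every Abx and H2O library, that r was 0.83 (permutation p = 0.00386). It was -0.08 within the 4-hundred series (permutation p = 0.823) and 0.34 after group means were subtracted (permutation p = 0.149).

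Oxct1, the CoA transferase that activates acetoacetate for use as fuel, had nearly equal levels in all groups. It averaged 342 ± 16.8 CPM in Abx_SCFA, 341 ± 18.3 in SCFA, 339 ± 11.2 in Abx and 339 ± 22.5 in H2O (SD). It had 5865 to 9032 counts per library, and its 95% intervals over the 5 pairwise comparisons lay between -8.05% and 9.55%.

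**Figure D2:**
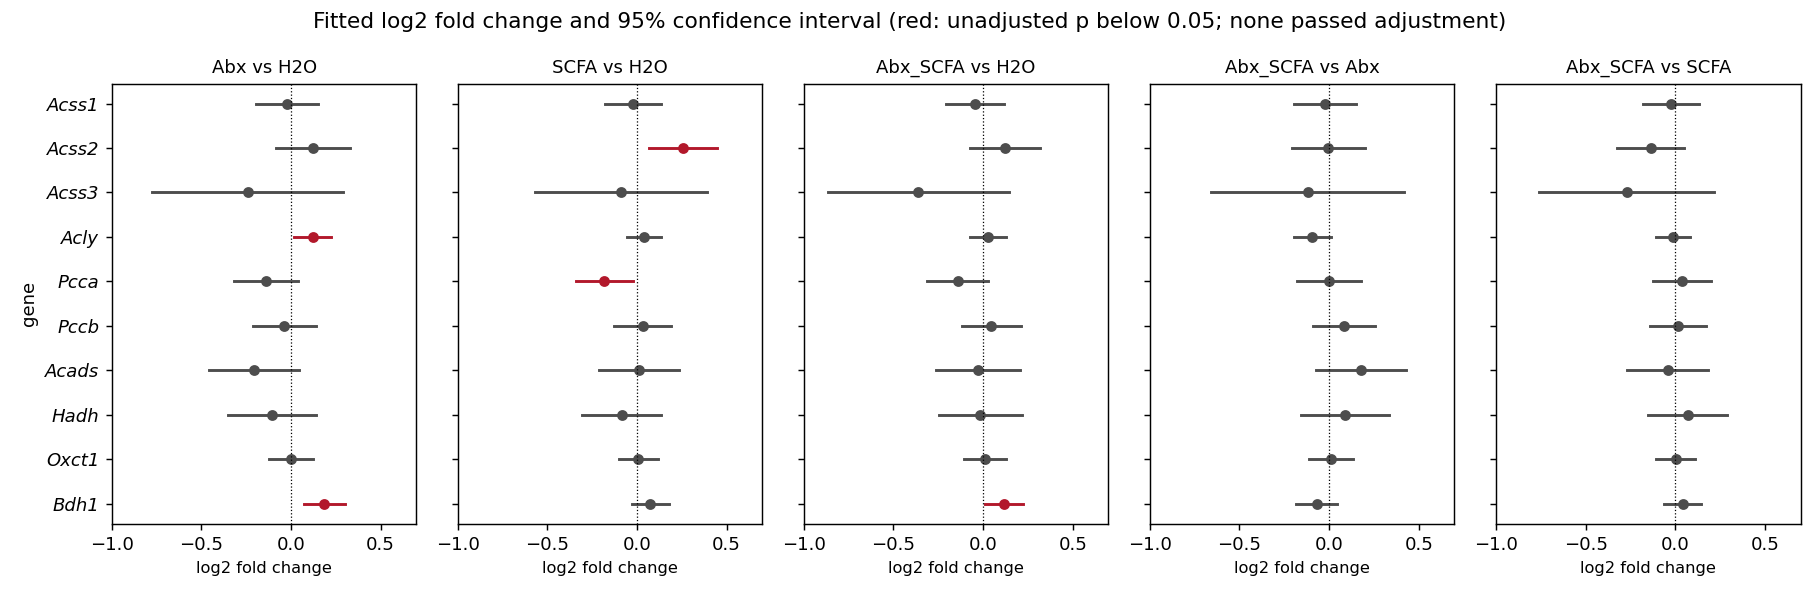
Log2 fold change of each enzyme gene with its 95% interval in the 5 pairwise comparisons. Values above 0 are higher in the group named first, and red marks an unadjusted p below 0.05. Acss2 in SCFA vs H2O and Bdh1 in Abx vs H2O lie farthest above 0 for their error, at 0.26 and 0.19, and neither passed adjustment.

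The members below an unadjusted p of 0.05 are set here beside the share of all genes below it. In Abx vs H2O, 2 members (Bdh1 and Acly) were higher and 0 lower, where 3.26% of all genes were higher and 5.53% lower (8.79% in all). In SCFA vs H2O, 1 member (Acss2) was higher and 1 (Pcca) lower, beside 8.2% and 5.58% of all genes (13.8% in all). In Abx_SCFA vs H2O, 1 member (Bdh1) was higher and 0 lower, beside 2.09% of all genes that were higher and 5.56% in either direction. The main effect of antibiotics had 1 member (Bdh1) higher, beside 2.01% of all genes higher and 7.82% in either direction. There were 0 members at that p in Abx_SCFA vs Abx (3.19% of all genes), Abx_SCFA vs SCFA (6.78%), the interaction (7.85%) and the main effect of fatty acids (6.32%). The comparisons with H2O share their control libraries. Those of Abx_SCFA share the Abx_SCFA libraries, and SCFA or Abx libraries also stand on opposite sides of a pair of comparisons each. The median log2 fold change of the members was -0.03 in Abx vs H2O and 0.01 in SCFA vs H2O, beside -0.0083 and -0.0030 for all genes.

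In the remaining contrasts the members with the smallest p were as follows. Acss2 in Abx_SCFA vs SCFA had a log2 fold change of -0.14 ± 0.089 (unadjusted p = 0.146, edgeR adjusted p = 0.760), which was -0.07 without SCFA replicates 2 and 5 and turned to 0.03 with the medium spiny neuron score as a covariate. Those 14 markers all had positive fold changes there, with a median of 0.38. Acss3 was at -0.27 ± 0.23 in the same comparison (unadjusted p = 0.259, edgeR adjusted p = 0.819). For Acss3 this was -0.07 without SCFA replicate 3, -0.16 without Abx_SCFA replicate 2, -0.45 without SCFA replicates 2 and 5 and -0.47 with the medium spiny neuron score. The interaction of Acss2 was -0.26 ± 0.13 (unadjusted p = 0.0655, edgeR adjusted p = 0.627), and -0.07 with the cortical score. For the main effect of fatty acids, Acss2 was at 0.13 ± 0.067 (unadjusted p = 0.0722, edgeR adjusted p = 0.763) and Pcca at -0.09 ± 0.058 (unadjusted p = 0.130, edgeR adjusted p = 0.763). With the cortical score these were 0.04 and -0.03, and without Abx replicate 2 that of Pcca was -0.06. Acly had a main effect of antibiotics of 0.06 ± 0.034 (unadjusted p = 0.115, edgeR adjusted p = 0.714).

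Ratios within a library do not depend on how libraries are scaled. Acss1 and Acss2 encode the mitochondrial and the nucleocytosolic acetyl-CoA synthetase. The log2 ratio of their counts, Acss1 to Acss2, averaged 0.42 ± 0.18 in SCFA and 0.71 ± 0.15 in H2O (SD), a difference of -0.28. An exact two-sided permutation test gave p = 0.0130, and p = 0.195 adjusted over the 15 tests of 3 ratios in 5 comparisons. Most of that difference lies with Acss2, whose log2 fold change was 0.26, where that of Acss1 was -0.02. SCFA replicate 5, the library with the highest Slc17a7, had a log2 ratio of 0.07, where the other SCFA libraries had 0.43 to 0.58. The ratio tests took no account of cell type markers. The log2 ratio of the carboxylase subunits, Pcca to Pccb, averaged 0.06 ± 0.13 in SCFA and 0.27 ± 0.18 in H2O (SD), with an exact permutation p of 0.0693 and an adjusted p of 0.298. In Abx_SCFA it averaged 0.08 ± 0.10 (SD), with an exact permutation p of 0.0794 against H2O and an adjusted p of 0.298. The log2 ratio of Acss2 to Acly averaged -2.20 ± 0.14 in SCFA and -2.42 ± 0.20 in H2O (SD), with an exact permutation p of 0.0736 and an adjusted p of 0.298. None of the 15 tests passed adjustment. The smallest p these exact tests allow is 0.0159 with 4 against 5 libraries, 0.00794 with 5 against 5 and 0.00433 with 5 against 6. Adjusted over 15 tests, no single ratio could have passed alone even at these values. The lack of a pass therefore cannot decide whether a ratio differed.

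**Figure D3:**
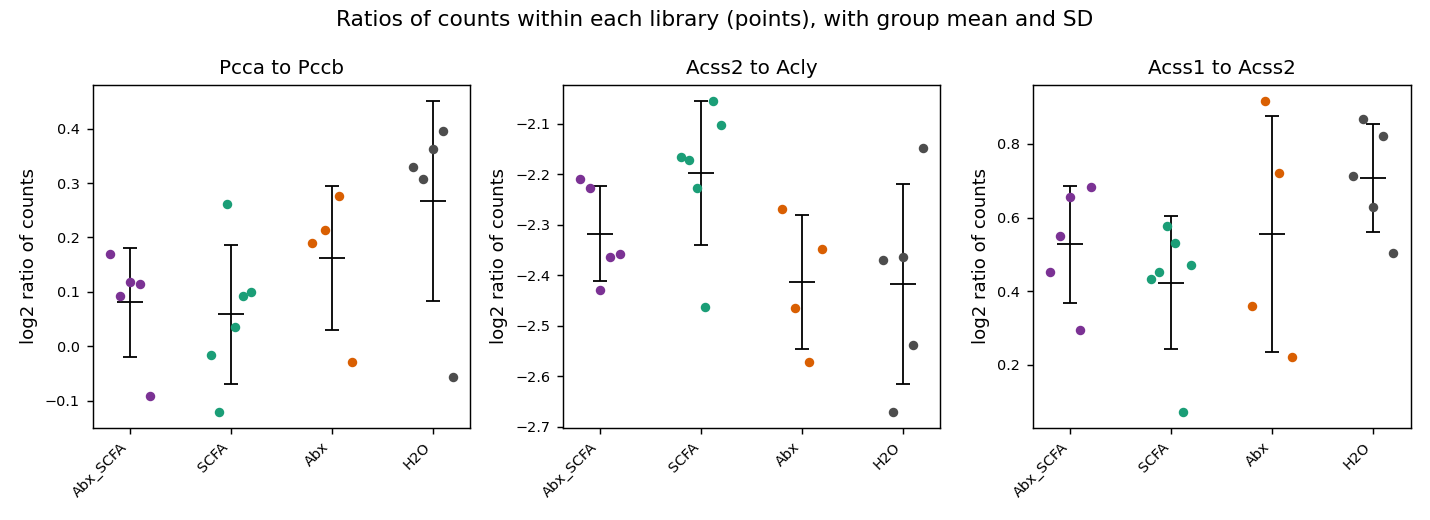
Log2 ratio of counts within each library for the 3 pairs of enzyme genes, by group. Points are libraries and bars give the group mean with its SD. H2O replicate 5 has a Pcca to Pccb ratio of -0.06, below the other H2O libraries at 0.31 to 0.40.

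Across the 20 libraries, 4 of 50 relations between a member and a cell type marker score passed adjustment by Pearson r. By Spearman rho 7 did, the same 4 and Acads with astrocyte markers (permutation test, adjusted p = 0.0408), Hadh with endothelial markers (0.0408) and Acads with medium spiny neuron markers (0.0496). Acss2 was lower where medium spiny neuron markers were higher, with a Pearson r of -0.77 (permutation p = 2e-05, adjusted p = 0.001) and a Spearman rho of -0.80 (permutation p = 4e-05). It was -0.79 without SCFA replicates 2 and 5, the libraries farthest from the median, -0.73 after group means were subtracted, -0.80 within the 9 rats of the 2- and 3-hundred series and -0.83 within the 11 of the 4-hundred series. Acss2 also went with cortical markers, with an r of 0.69 (permutation p = 0.00083, adjusted p = 0.0207) and a rho of 0.73. Without the 2 farthest libraries that r was 0.73, and it was 0.56 after group means were subtracted (permutation p = 0.0101). Within the 2- and 3-hundred series it was 0.65 (permutation p = 0.0563) and within the 4-hundred series 0.54 (permutation p = 0.0866).

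Pcca was lower where cortical markers were higher, with an r of -0.64 (permutation p = 0.00224, adjusted p = 0.028) and a rho of -0.63. Without the 2 farthest libraries it was -0.59, and it was -0.46 after group means were subtracted (permutation p = 0.041). It was -0.74 (permutation p = 0.0279) in the 2- and 3-hundred series. In the 4-hundred series it was weaker, at -0.28 (permutation p = 0.403), and the difference between the series was not tested. Hadh went with astrocyte markers, with an r of 0.67 (permutation p = 0.00134, adjusted p = 0.0223) and a rho of 0.68. Without the 2 farthest libraries it was 0.69, and it was 0.73 after group means were subtracted (permutation p = 0.00017). Within the 2- and 3-hundred series it was 0.83 (permutation p = 0.00797) and within the 4-hundred series 0.57 (permutation p = 0.0699).

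**Figure D4:**
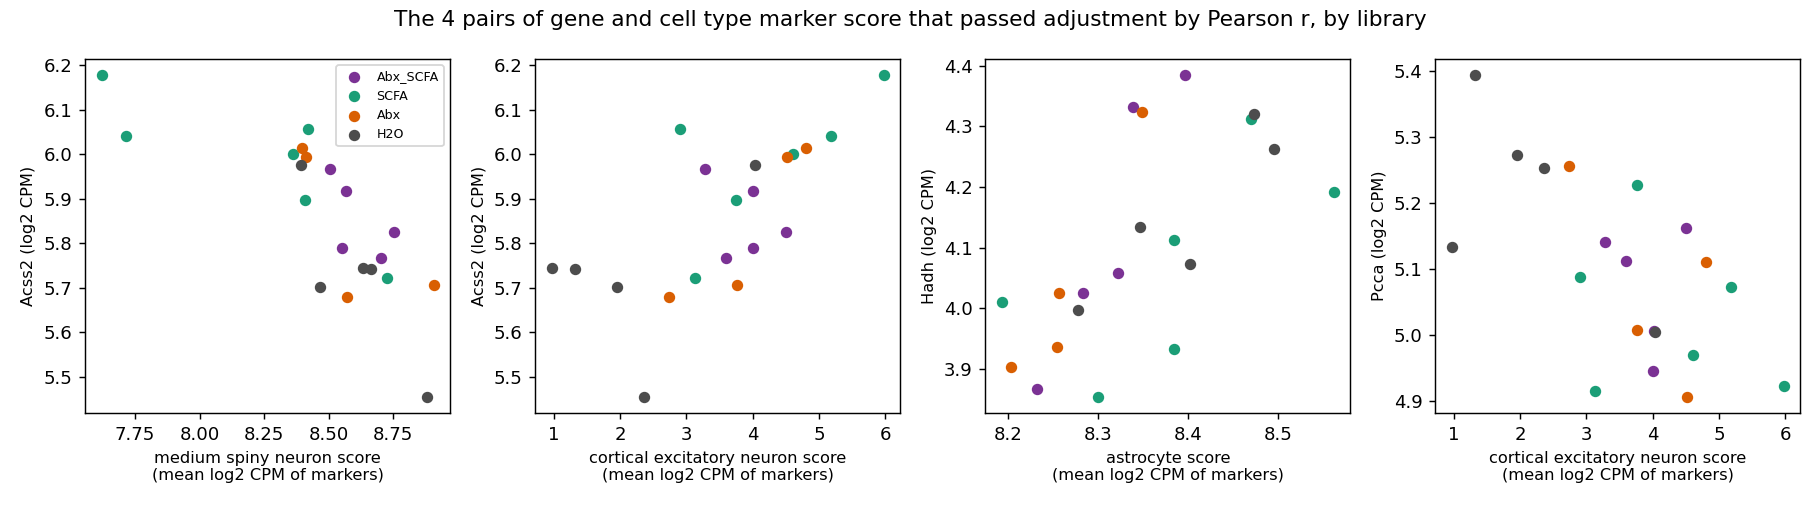
Log2 CPM of Acss2, Hadh and Pcca (y axes) against the mean log2 CPM of a cell type marker list (x axes) in the 20 libraries, coloured by group, for the 4 relations that passed adjustment by Pearson r. Acss2 falls as the medium spiny neuron score rises, with an r of -0.77 over all libraries.

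The genes whose levels across the 20 libraries were most like a member's, among 12020 genes of at least 1 CPM, are given as a description. Acss2 was most like Dock9 (r = 0.90) and Larp1b (r = 0.89), and Acss1 most like Hnrnph1 (r = 0.85) and Taf1d (r = 0.83). Acly was most like Arhgef25 (r = 0.76) and Blvrb (r = 0.71), and Acss3 most like Sh3bp5 (r = 0.80) and Krt10 (r = 0.76). For Pcca they were Hspb11 and C1galt1c1 (r = 0.81 each), and for Pccb Rplp0 (r = 0.78) and Selenos (r = 0.76). Acads was most like Zfp641 (r = 0.84) and Cnr2 (r = 0.83), and for Hadh Phactr3 had an r of 0.81. Oxct1 was most like Dctn6 (r = 0.86) and Cycs (r = 0.83), which encodes cytochrome c of the respiratory chain. Bdh1 was most like the symbols Mir671 (r = 0.86), where counts may hold reads of a host or overlapping transcript, and LOC100911827 (r = 0.83). Among the members themselves the highest r was 0.56, for Acly and Bdh1, and the lowest -0.51, for Acss2 and Pcca. After group means were subtracted these were 0.27 and -0.33. The highest was then 0.64, for Acss2 and Acads, and the lowest -0.47, for Acads and Oxct1. The subunits Pcca and Pccb had an r of 0.29.

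Wider lists of the same pathways held no gene that passed adjustment in any contrast. They also hold the members, so their counts partly repeat values given above. Acss1, Acss2, Acss3 and Acly are in the acetyl-CoA list, and Acss3, Pcca and Pccb in the propionate list. Acads and Hadh are in the butyrate list, and Oxct1 and Bdh1 in the ketone body list. The list of SREBP targets holds none of the members. In SCFA vs H2O the propionate list had 11 of 13 tested genes with negative fold changes and a median of -0.06. Of these, 2 were lower at an unadjusted p below 0.05, the member Pcca among them. The list of butyrate and mitochondrial beta-oxidation had 16 of 24 negative, 0 at that p, and a median of -0.05, beside 6558 of all 12846 genes negative and 5.58% lower at that p. In Abx vs H2O these lists had 11 of 13 and 19 of 24 negative, with medians of -0.10 and -0.09, beside 6723 negative among all genes. The 17 genes of acetyl-CoA supply and use had a median of 0.02 in Abx vs H2O and the 8 ketone body genes one of 0.06 in SCFA vs H2O. SREBP targets are genes of sterol and fatty acid synthesis, and Acss2 and Acly are known targets of the same factors. All 12 on that list had positive fold changes in SCFA vs H2O, 9 higher at an unadjusted p below 0.05, with a median of 0.31. Of all 12846 genes, 6288 had positive fold changes there and 8.2% were higher at that p. In Abx_SCFA vs SCFA all 12 had negative fold changes, 7 lower at that p, with a median of -0.29, beside 7007 negative and 4.06% lower among all genes. Acss2 was at 0.26 in SCFA vs H2O and -0.14 in Abx_SCFA vs SCFA. Acly was near 0 in both, at 0.04 and -0.01, so only Acss2 of these members moved with the list. Both comparisons hold the same 6 SCFA libraries, with opposite sign, so that they are not independent of each other. The list's score (mean log2 CPM) was highest in SCFA replicates 5 and 2, at 6.76 and 6.73, which also had the highest Slc17a7. None of the 12 passed adjustment in either comparison, and the part of the cell type markers in them was not tested.

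Among single pathway genes with the smallest p, Sqle, squalene epoxidase, had a log2 fold change of 0.34 ± 0.10 (SE) in SCFA vs H2O. Mmadhc, of cobalamin handling, was at -0.19 ± 0.061 and Slc16a1, a monocarboxylate transporter, at -0.32 ± 0.12 in Abx vs H2O. Acadsb, a short branched-chain dehydrogenase, was at -0.21 ± 0.075 and Acot12, an acetyl-CoA thioesterase, at -1.75 ± 0.67 in Abx_SCFA vs H2O. In Abx_SCFA vs Abx, Acot8, a peroxisomal thioesterase, was at 0.21 ± 0.068 and Acot12 at -1.58 ± 0.70. In Abx_SCFA vs SCFA, Sqle was at -0.28 ± 0.10 and Acot12 at -1.75 ± 0.64. The interaction of Mmadhc was 0.21 ± 0.082. The main effect of fatty acids was -0.13 ± 0.054 for Acadsb and 0.10 ± 0.046 for Acot8, and that of antibiotics -0.19 ± 0.080 for Btd, biotinidase, and -0.96 ± 0.44 for Acot12. None of these values had an edgeR adjusted p below 0.05. The SEs of Acot12, 0.44 to 0.70, were the largest among them, so its changes are poorly known. Every contrast named for Acot12 holds the Abx_SCFA libraries, so its values are not independent of each other. Its levels in single libraries are not given here.

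The promoters of Acss2 and Acly, the members that share SREBP control, are shown because these are the routes to nucleocytosolic acetyl-CoA. Both are the 250 bases before the annotated start, 5′ to 3′ in the gene's direction, from RefSeq on GRCr8, at chr3:164464453-164464702 on the plus strand for Acss2 and chr10:85963632-85963881 on the minus strand for Acly. Capitals mark the CCAAT box (CCAAT) and the GC box (GGGCGG) on either strand.
Acss2: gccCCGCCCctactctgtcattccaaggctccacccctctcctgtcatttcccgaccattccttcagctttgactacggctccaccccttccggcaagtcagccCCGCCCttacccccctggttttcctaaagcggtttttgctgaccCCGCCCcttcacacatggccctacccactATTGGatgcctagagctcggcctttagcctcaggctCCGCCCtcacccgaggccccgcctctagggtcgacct
Acly: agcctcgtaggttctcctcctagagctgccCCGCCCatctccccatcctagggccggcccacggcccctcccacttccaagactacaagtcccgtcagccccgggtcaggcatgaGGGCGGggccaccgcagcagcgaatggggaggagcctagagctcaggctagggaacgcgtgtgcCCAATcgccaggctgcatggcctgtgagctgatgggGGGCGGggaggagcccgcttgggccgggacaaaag
The CCAAT box begins 73 bases before the start in Acss2 and 71 in Acly, and the GC box occurs 4 times in Acss2 and 3 times in Acly. Of 27457 promoter windows of that length, 34.3% hold the CCAAT box and 32.4% the GC box. Windows for 8 of the 10 members were matched. None of the 8 holds TCACNCCAC, a sterol regulatory element found in 0.976% of windows, or the E-box CACGTG, found in 5.79%, searched on both strands, which says only that these letters are not in these windows.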

How the data were processed

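Whole-number counts per symbol for 20 polyA RNA libraries were deposited by the authors. Per the labels' protocols, RNA was extracted with an RNeasy kit and cDNA made with a SMARTer kit. The submitters' processing notes name the build Rnor_6.0 and the tools STAR 2.4.0, FastQC 0.11.6 and limma. No source used here gives the counter, annotation or strand setting, so reads of overlapping or antisense genes cannot be told apart. The chi-square per gene was at least 6.59 in all 190 library pairs, so no library is a recount of another, and each counts as 1 replicate. Cage mates are not identified, and the p-values treat rats as independent of their cage.

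Genes were kept by filterByExpr (minimum count 10, minimum total 15). In R 4.3.3, the edgeR 4.0.16 quasi-likelihood test used TMM scaling, robust dispersion and 1 model of the 4 groups, with 16 residual degrees of freedom. Adjustment was by Benjamini-Hochberg over all 12846 genes, with 0.05 as the threshold. Standard errors come from the F statistic. CPM is scaled to the TMM library size, with a prior count of 2 before logs. Ratios used a pseudocount of 0.5 and exact permutation tests in SciPy 1.17.1, and relations used 100000 permutations. A count of 0 allows up to 3 counts, or 0.117 to 0.171 CPM, for counting error only.

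The members and lists were chosen with earlier results of these data known. All members are described. Fold changes are printed for members called and for the 2 with the smallest p in each contrast, the 2 genes most like each member are named, and of the pathway lists the 2 non-members with the smallest p per contrast. Some genes taken by these rules are not reported here, and none replaced them. Alternatives were DESeq2 1.42.0, its size factors, limma-voom 3.58.1, no filter, only the groups compared, marker score covariates and libraries left out. The edgeR script was tested on simulated counts for SCFA vs H2O. It called 38% of the genes changed 1.25-fold, 68% of those changed 1.5-fold and 94% of those changed 3-fold. Small changes were thus often missed in that simulation. Its genes varied independently of each other, without the shared shifts of cell type markers seen in these libraries. The shares called may therefore not hold for the real data.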

Additional observations from a re-analysis of the deposited data

Results flagged for a closer look

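Of 52 groups of library values checked (the 10 genes and 3 ratios in each of 4 groups), 6 had a library far from the rest of its group, and chance flags about 1 in 20. Acss1 was at 69.3 CPM in Abx_SCFA replicate 4, where the other Abx_SCFA libraries had 85.5 to 88.6. Acss3 was at 1.01 CPM in Abx_SCFA replicate 2, where the others had 1.64 to 1.87. Acly was at 302 CPM in H2O replicate 4, which also had low Cend1, where the others had 275 to 279. Oxct1 was at 378 CPM in H2O replicate 2, where the others had 323 to 336. The log2 ratio of Pcca to Pccb was -0.056 in H2O replicate 5, where the others had 0.31 to 0.40. The log2 ratio of Acss1 to Acss2 was 0.072 in SCFA replicate 5, one of the libraries with the highest Slc17a7, where the others had 0.43 to 0.58.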

How the results depend on the processing

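The count of members called stayed at 0 under each alternative run, which were 30 for each pairwise comparison and 29 for the interaction, both main effects and the test of any difference. Of 474 alternative values of the named fold changes, 473 kept their direction, and Acss2 in Abx_SCFA vs SCFA turned to 0.030 with the medium spiny neuron score as a covariate, which was added after the data were seen. Of 186 alternative ratio values, 10 changed sign, all in 3 comparisons whose differences lay near 0. With single libraries left out, the difference of Acss2 to Acly in Abx vs H2O ran from -0.059 to 0.072, that of Acss1 to Acss2 in Abx_SCFA vs Abx from -0.14 to 0.093, and that of Pcca to Pccb in Abx_SCFA vs SCFA from -0.013 to 0.066. Without H2O replicate 4 and Abx_SCFA replicate 5 the first was -0.026, and without SCFA replicates 2 and 5 the last was -0.014. The cause of these changes was not tested. Leaving out single libraries gave log2 fold changes of 0.14 to 0.23 for Bdh1 in Abx vs H2O, 0.20 to 0.33 for Acss2 in SCFA vs H2O, -0.23 to -0.13 for Pcca in SCFA vs H2O, 0.11 to 0.17 for Acly in Abx vs H2O, 0.11 to 0.25 for Acads in Abx_SCFA vs Abx and -0.35 to -0.066 for Acss3 in Abx_SCFA vs SCFA. Of 16 alternative values of the 4 relations, 12 kept a permutation p below 0.05 and 4, all within a number series, did not. No paired analysis was possible because replicate numbers only name the libraries and the labels give no numbers shared between groups. Acss3 had the fewest counts and the widest intervals of the members.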
